A study of Homo sapiens with 16 samples.

Results

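Fatty acid oxidation, the activation of fatty acids and ketone metabolism are covered here by 50 genes. They were chosen by name from the gene count table with earlier results of these data known, and not by a rule on their values. All 50 names were found among the 58735 genes of the table, and 47 had enough counts to be tested. They code for proteins of fatty acid uptake and binding, acyl-CoA synthetases, the carnitine shuttle, the mitochondrial and peroxisomal enzymes of beta-oxidation, the electron transfer flavoproteins, ketone enzymes, acyl-CoA thioesterases and an uncoupling protein. The genes were followed across 16 libraries of polyadenylated RNA from differentiated HepaRG cells, a human liver line that forms a mixed culture of hepatocyte-like and cholangiocyte-like cells. Each of the 4 groups had 4 libraries. The combination group received 30 nM formoterol, a long-acting agonist of beta-adrenergic receptors, with 0.5 mM oleic acid and 0.25 mM palmitic acid. The fatty acid group received both fatty acids, the formoterol group received formoterol, and the control group received vehicle (1% BSA). The labels name BSA for the control group and give no vehicle for the other 3. Treatment lasted 3 days. All groups were kept with 2% DMSO in a medium that also held serum, insulin and the glucocorticoid triamcinolone acetonide. The series describes the libraries as independent replicates and does not say whether they came from separate cultures, so the p-values measure the spread between these samples, which may be technical.

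A long-chain fatty acid is bound and carried in the cytosol, joined to coenzyme A by an acyl-CoA synthetase, and moved into the mitochondrion by the carnitine shuttle. There each turn of beta-oxidation (dehydrogenation, hydration, dehydrogenation again and thiolysis) shortens the chain and yields acetyl-CoA, which the liver can turn into ketone bodies. Very long and branched chains are shortened in peroxisomes. In liver many of these genes are known targets of the fatty acid receptor PPARA, and fasting hormones that act through cAMP are known to favour oxidation and ketogenesis.

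Levels are CPM, counts scaled to 1e6 per library with TMM-adjusted library sizes. A value per kilobase is the CPM divided by the gene's deposited length, and was used wherever genes were compared with each other. Changes are log2 fold changes ± SE from edgeR's quasi-likelihood test, and a gene was called changed (rose or fell) at a Benjamini-Hochberg adjusted p under 0.05 over the 18121 genes tested. Gene positions are those of GRCh38 in GENCODE release 29. The libraries held 32.5 × 1e6 to 65.7 × 1e6 counts. All 15 hepatocyte markers averaged at least 1 CPM in each group, and their summed level was 27990 to 67811 CPM in the combination, 57471 to 65161 CPM with fatty acids, 68166 to 73365 CPM with formoterol and 29838 to 43708 CPM in control. Of 12 cholangiocyte markers 7 averaged at least 1 CPM in each group, EPCAM was listed at 0 in every library and KRT7 stayed below 1 CPM. Their sum was 368 to 463 CPM in the combination, 432 to 491 CPM with fatty acids, 307 to 316 CPM with formoterol and 267 to 288 CPM in control. The hepatocyte sum was led by ALB, SERPINA1 and FGB, and single markers did not all follow the sums. The hepatocyte marker CYP3A4 had 217 to 896 CPM in the combination, against 1542 to 2669 CPM in control. The cholangiocyte marker SOX9 had 19.2 to 25.0 CPM in the combination, against 43.3 to 51.3 CPM in control. In bulk RNA, fewer cells of a type and less RNA per cell cannot be told apart, and the part of the hepatocyte markers in the results below was not tested.

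Combination replicate 2 stood apart for these genes. It lay below the other 3 combination libraries in 35 of the 47 tested genes (74.5%), against 31.7% of all genes, and above them in 4 (8.51%), against 32.8% of all genes. The mean of the 47 genes relative to the control mean was −0.23 log2 units in that library, against 0.17 to 0.22 in the other 3. Its hepatocyte marker sum of 27990 CPM compared with 60997 to 67811 CPM in the other 3. Control replicate 3 was the lowest control library, with a mean of −0.16 log2 units, against 0.01 to 0.10 in the other 3, and a marker sum of 29838 CPM against 38572 to 43708 CPM. The calls that change without either library are listed after the interaction.

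**Figure D1:**
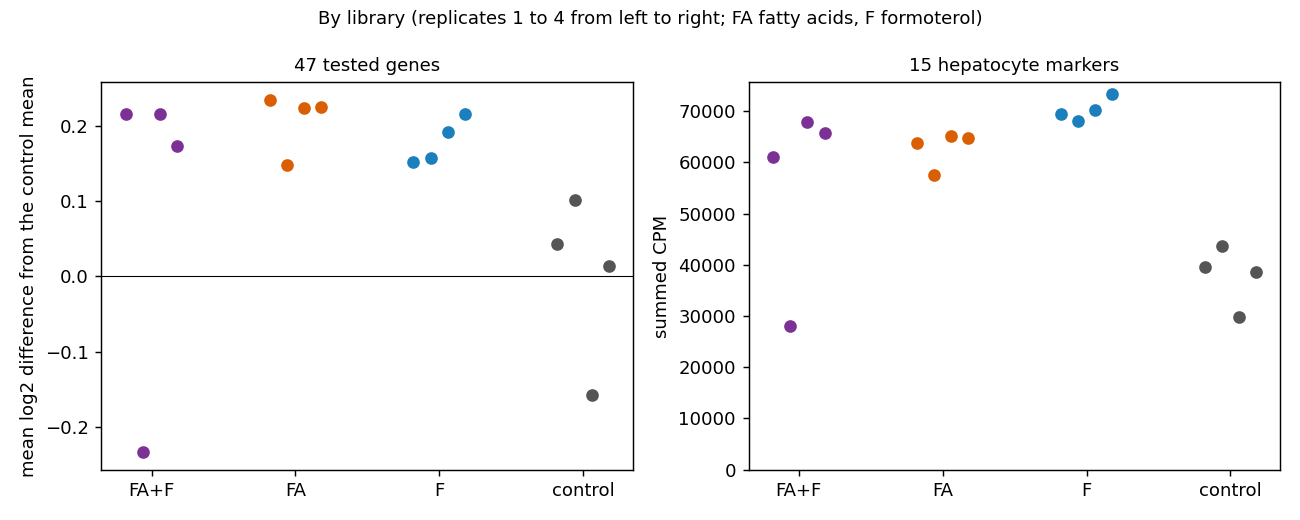
Mean log2 difference of the 47 tested genes from the control mean (left, log2 units) and summed CPM of the 15 hepatocyte markers (right), 1 point per library, in the order combination (FA+F), fatty acids (FA), formoterol (F) and control. Combination replicate 2, at −0.23 and 27990 CPM, lies below the other 3 combination libraries in both panels, and control replicate 3, at −0.16 and 29838 CPM, is the lowest control library in both.

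At an adjusted p under 0.05 more of these genes passed with fatty acids than with formoterol, most of them upward. By median change and by groups without overlap, both given below, the fatty acid and formoterol values were close. With fatty acids against control, 21 of the 47 tested genes passed the test (44.7%), 18 higher and 3 lower, where 16.5% of all tested genes passed, 8.93% higher and 7.62% lower. With formoterol against control 12 passed (25.5%), 11 higher and 1 lower (4 higher and 3 lower when scaled by total counts alone), where 10.3% of all genes passed, 5.76% higher and 4.57% lower. Scaled by total counts alone, 485 of all genes were called higher with formoterol and 1918 lower. With the combination against control 13 passed (27.7%), 10 higher and 3 lower, against 14.3% of all genes, 7.58% higher and 6.68% lower. Between the combination and fatty acids 1 gene differed, which was higher, against 2.80% of all genes, 1.68% higher and 1.12% lower. Between the combination and formoterol 19 differed (40.4%), 8 higher and 11 lower (12 higher and 7 lower when scaled by total counts alone), against 18.4% of all genes, 9.48% higher and 8.97% lower. Here scaling by total counts alone called 2965 of all genes higher and 696 lower. The comparisons share libraries, so their counts are not independent of each other, and the difference between the counts was not tested.

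The median log2 fold change of the 47 genes was 0.16 with fatty acids, 0.18 with formoterol and 0.09 with the combination, each against control, where the median of all tested genes was 0.01, −0.00 and 0.00. Libraries of the 2 groups did not overlap for 22 of the 47 genes with fatty acids against control (all genes 21.0%), 23 with formoterol against control (16.7%), 9 with the combination against control (16.3%), 10 between the combination and fatty acids (9.34%) and 24 between the combination and formoterol (21.1%). Scaling by total counts alone, without TMM, moved the median of all genes by over 0.1 in the 3 comparisons that use the group given formoterol alone. It stood at −0.14 with formoterol against control, at 0.14 for the combination against formoterol and at 0.17 for the interaction. All directions below are relative to the TMM scale.

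**Figure D2:**
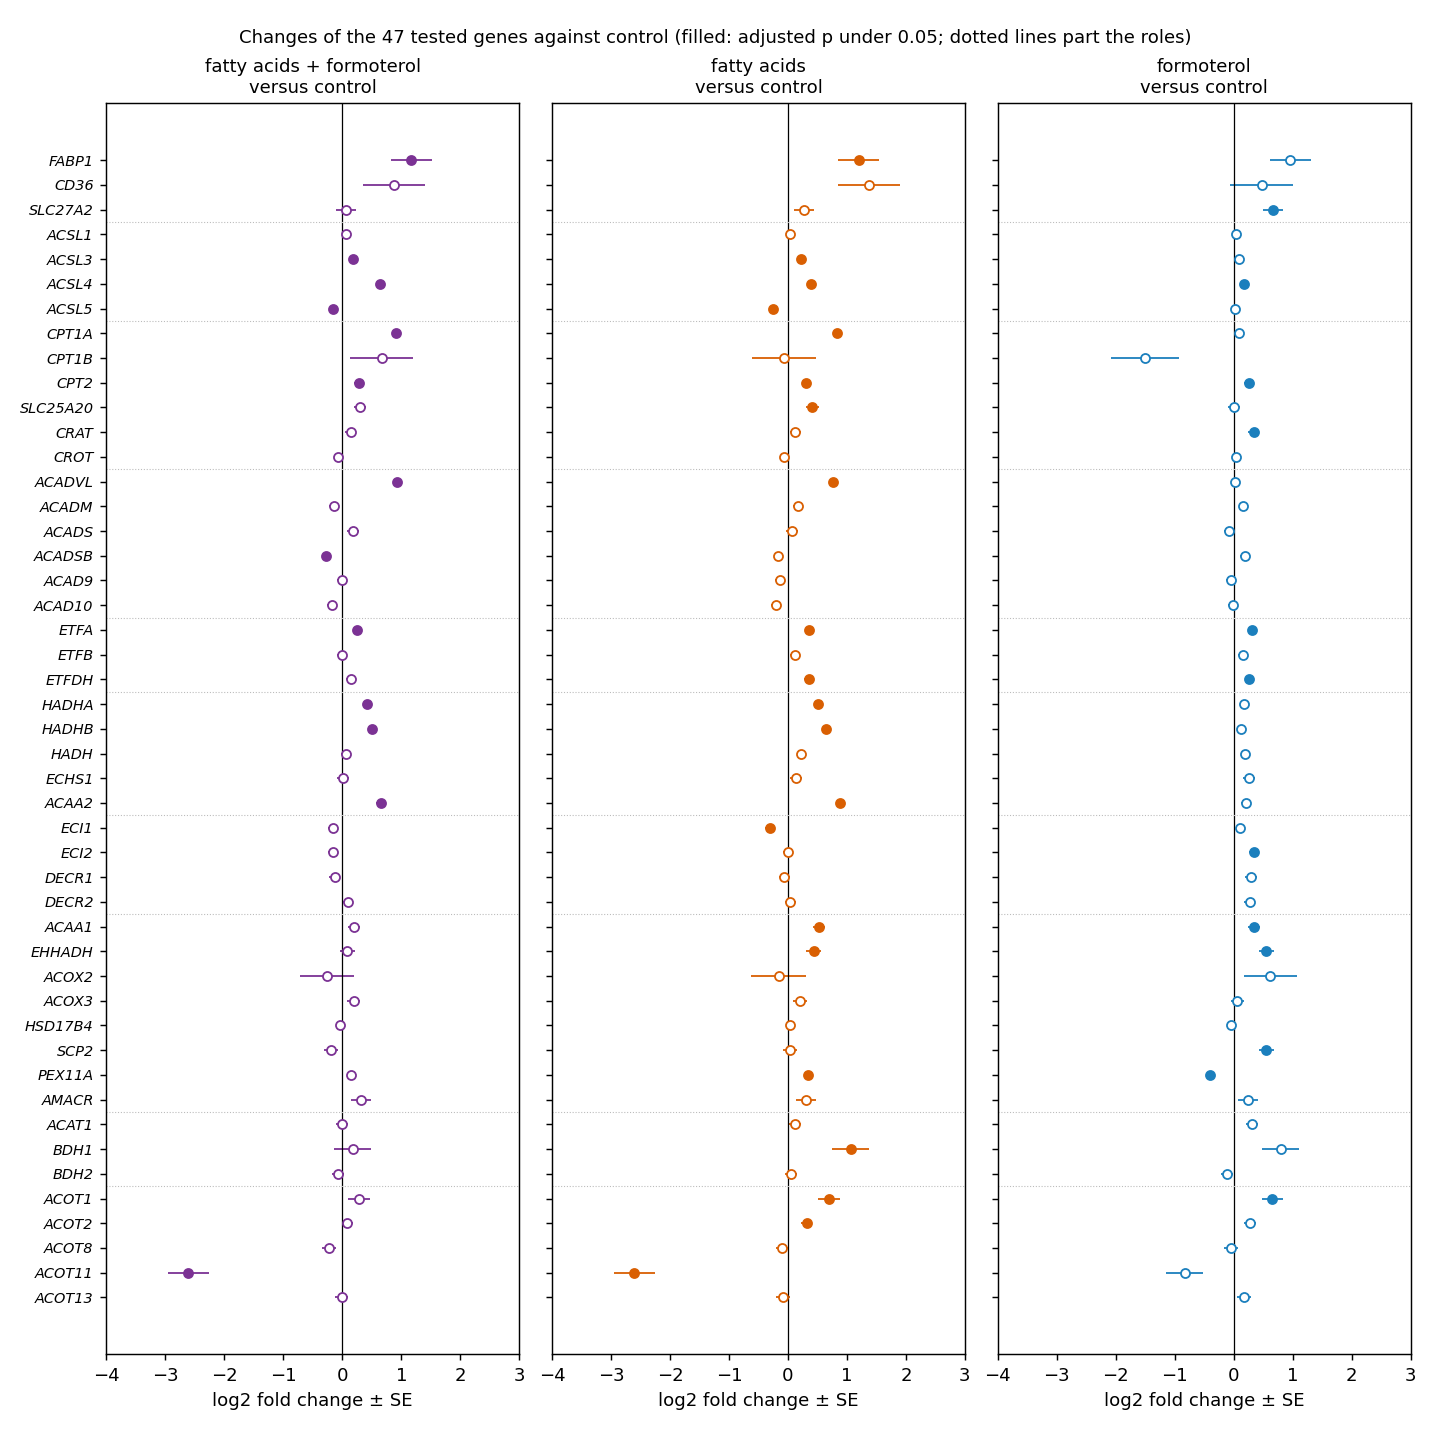
Log2 fold change ± SE of each of the 47 tested genes against control, with the combination, fatty acids and formoterol from left to right and the genes ordered by role. Filled points passed an adjusted p of 0.05. Filled points number 13, 21 and 12 in the 3 panels, and ACOT11 lies farthest to the left in the first 2.

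By level, activation led the set. Per kilobase, the control means were highest for ACSL1 (369.6 CPM), a long-chain acyl-CoA synthetase that is abundant in liver, followed by ECHS1 (119 CPM), ACSL4 (104 CPM), ACSL5 (99.4 CPM), ACADVL (87.7 CPM) and HADHA (83.5 CPM). At the low end stood BDH1 (1.03 CPM), AMACR (0.959 CPM), ACOX2 (0.482 CPM), ACOT11 (0.296 CPM), CPT1B (0.111 CPM) and CD36 (0.0452 CPM). Too low to test were ACAD11 with 0 to 5 counts per library, OXCT1 with 0 to 10 counts and UCP2 with 0 counts in all 16 libraries. For UCP2, which codes for a mitochondrial carrier named as an uncoupling protein, a count of 0 allows up to 3 counts, or 0.0505 to 0.0966 CPM depending on the library, by counting error only. Whether the 0 counts of UCP2, and of the markers listed at 0, come from the cells or from the way reads were counted cannot be told from the table. OXCT1, the enzyme with which other tissues use ketone bodies, is known to be low in hepatocytes.

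Among the genes of uptake and binding, FABP1, the main fatty acid binding protein of the liver cytosol, rose with fatty acids and with the combination. FABP1 (ENSG00000163586, chr2:88122982-88128116, - strand) had 57.9, 11, 75.7 and 76.7 CPM in the combination libraries, 56, 45, 59.5 and 65.9 CPM in the fatty acid libraries, 49.8, 31.6, 47.7 and 62.4 CPM in the formoterol libraries and 28.1, 20.6, 18.9 and 30.9 CPM in the control libraries. The fatty acid and formoterol libraries all lay above the control libraries, and combination replicate 2 was the lowest of all 16. The log2 fold change was 1.20 ± 0.35, adjusted p = 0.0203 with fatty acids, 1.17 ± 0.35, adjusted p = 0.026 with the combination and 0.96 ± 0.35, adjusted p = 0.0825 with formoterol, which did not pass. Without control replicate 2 or 3 or fatty acid replicate 4 the fatty acid call was lost (adjusted p up to 0.0663), and without combination replicate 2 the formoterol call was gained. Leaving out control replicate 2 or 3 or combination replicate 1, 3 or 4 ended the combination call, with adjusted p up to 0.0946. SLC27A2, which activates and imports very long-chain fatty acids, rose with formoterol and did not pass with fatty acids. It had 44.7, 21.9, 51.1 and 48.5 CPM in the combination libraries, 46.9, 42.8, 52.7 and 50.3 CPM in the fatty acid libraries, 61.4, 60.1, 61.9 and 69.2 CPM in the formoterol libraries and 42.6, 44.6, 31.3 and 40.4 CPM in the control libraries. The formoterol libraries were above every other library. The change with formoterol was 0.67 ± 0.17, adjusted p = 0.0134, lost without control replicate 3 (adjusted p = 0.062), and that with fatty acids 0.28 ± 0.17, adjusted p = 0.296, called without combination replicate 2 (adjusted p = 0.0278). CD36, the membrane fatty acid translocase, was near the detection limit at 0.417 to 1.66 CPM in the combination, 1.05 to 1.67 CPM with fatty acids, 0.404 to 1.2 CPM with formoterol and 0.168 to 1.04 CPM in control, and passed no test.

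The RefSeq promoter window of FABP1 (GRCh38.p14, chr2:88128013-88128312, - strand, 250 bases before to 50 bases after the start site) is shown because FABP1 had the highest rise with fatty acids among the genes called and because its window is one of few in the set with a nuclear receptor half-site. The half-site AGGTCA, on either strand, is in capitals.
FABP1: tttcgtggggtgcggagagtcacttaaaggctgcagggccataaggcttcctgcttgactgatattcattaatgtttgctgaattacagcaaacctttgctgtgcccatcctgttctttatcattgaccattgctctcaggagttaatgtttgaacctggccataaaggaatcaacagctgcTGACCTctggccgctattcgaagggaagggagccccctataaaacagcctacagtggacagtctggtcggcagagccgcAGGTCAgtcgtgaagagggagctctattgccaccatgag
The 2 matches begin 68 bases before the start site, as TGACCT, and 11 bases after it. Windows were found for 40 of the 50 genes, with 61 windows in all. The half-site was present in 3 of the 61 (4.92%), those of FABP1, ACSL5 and ACAD10, against 13.8% of the 35116 windows in the table. The direct repeat AGGTCANAGGTCA, one form of the PPAR response element that contains the half-site, was in 0 of the 61 and in 8 of all 35116 windows (0.0228%). The cAMP response element TGACGTCA was in 3 of the 61 windows (4.92%, those of ACAD9 and ACOX3) and in 1.85% of all, and its core TGACG, which every full element contains, was in 15 (24.6%), the same share as in all windows (24.6%). Neither ACAD9 nor ACOX3 passed in any comparison.

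The acyl-CoA synthetases moved in both directions. ACSL4, which prefers arachidonic and other polyunsaturated acids, was the one gene of the 47 that rose when formoterol was added to fatty acids. It had 1020.3, 1037, 1090.3 and 1018 CPM in the combination libraries, 861, 889, 929 and 835 CPM in the fatty acid libraries, 774, 743, 758 and 743 CPM in the formoterol libraries and 680.2, 734, 637 and 615 CPM in the control libraries. Each group lay above the next without overlap. Its log2 fold change was 0.64 ± 0.06, adjusted p = 8.62e-08 for the combination against control, 0.40 ± 0.06, adjusted p = 4.02e-05 for fatty acids against control, and 0.25 ± 0.06, adjusted p = 0.0191 for the combination against fatty acids. The last was lost without fatty acid replicate 1 or 4 or combination replicate 3 (adjusted p up to 0.075) and with only those 2 groups fitted. With formoterol alone ACSL4 sat at the threshold (0.18 ± 0.06, adjusted p = 0.0498) and was called in 4 of 23 alternative fits. ACSL5, a synthetase of mitochondria and endoplasmic reticulum, was lower with fatty acids at 347, 365, 333 and 360.2 CPM, against 418, 425, 429 and 412 CPM in control (log2 fold change -0.26 ± 0.05, adjusted p = 0.000764). The combination had 379, 382, 389 and 362 CPM (-0.16 ± 0.05, adjusted p = 0.0376), a fall that was lost without any 1 of the 4 control libraries, formoterol replicate 3 or combination replicate 1 or 4, with adjusted p up to 0.234 over all alternatives. ACSL3, which acts at the endoplasmic reticulum and on lipid droplets, rose slightly with fatty acids (0.23 ± 0.06, adjusted p = 0.0102) and the combination (0.19 ± 0.06, adjusted p = 0.0335). Both ACSL3 calls were lost in some fits that left out 1 library, with adjusted p up to 0.0569 without fatty acid replicate 1 and up to 0.13 without combination replicate 3. ACSL1, the most abundant gene of the set, lay between −0.01 and 0.06 in every log2 fold change and passed no test.

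In the carnitine shuttle the gatekeeper CPT1A rose with fatty acids and did not pass with formoterol alone. CPT1A (ENSG00000110090, chr11:68754620-68844410, - strand), whose enzyme makes acylcarnitines at the outer mitochondrial membrane and sets the pace of long-chain oxidation, had 269.6, 230.4, 267 and 242 CPM in the combination libraries, 238, 238, 247 and 226 CPM in the fatty acid libraries, 143, 143, 148 and 135 CPM in the formoterol libraries and 138, 139, 123 and 134 CPM in the control libraries. All 8 libraries with fatty acids stood above all 8 without. The log2 fold change was 0.92 ± 0.06, adjusted p = 1.73e-09 for the combination and 0.83 ± 0.06, adjusted p = 5.29e-09 for fatty acids, each against control, and 0.09 ± 0.06, adjusted p = 0.403 for formoterol. Added to fatty acids, formoterol gave 0.09 ± 0.06, adjusted p = 0.569, and the interaction was -0.00 ± 0.09, adjusted p = 0.991. SLC25A20, the translocase that carries acylcarnitines across the inner membrane, rose with fatty acids at 75.8, 77.1, 71.9 and 82.6 CPM, against 58.8, 54.8, 52.7 and 64 CPM in control (log2 fold change 0.42 ± 0.10, adjusted p = 0.00819). The combination libraries had 71.7, 52, 75.7 and 83.5 CPM and did not pass against control (0.30 ± 0.10, adjusted p = 0.0631), but did without combination replicate 2 (adjusted p = 0.000344).

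CPT2, which turns acylcarnitines back to acyl-CoA, was higher in all 3 treated groups at 33.1 ± 3.03 CPM in the combination, 33.8 ± 2.55 CPM with fatty acids and 32.6 ± 1.55 CPM with formoterol, against 27.2 ± 1.77 CPM in control (mean ± SD, n = 4 each). Its log2 fold changes were 0.29 ± 0.08, adjusted p = 0.0188, 0.31 ± 0.08, adjusted p = 0.00968 and 0.26 ± 0.08, adjusted p = 0.0407 in that order. Each of the 3 calls was lost when 1 of several libraries was left out, with adjusted p up to 0.0817 for the combination without combination replicate 1 and up to 0.0521 for fatty acids without fatty acid replicate 1. C1orf123, which overlaps CPT2 on the opposite strand, held 0.542 times its counts. The part of C1orf123 reads in the CPT2 values was not tested. CRAT, the carnitine acetyltransferase, rose with formoterol (0.34 ± 0.09, adjusted p = 0.0203), a call lost without control replicate 1 or 3 or formoterol replicate 2 or 4, and overlaps PTPA on the opposite strand, which held 1.46 times its counts. CROT, the peroxisomal octanoyltransferase, passed in no comparison. CPT1B, the muscle form, had 1.2, 0.721, 0.392 and 0.584 CPM in the combination, against 0.0571, 0.187, 0.193 and 0.185 CPM with formoterol (log2 fold change 2.18 ± 0.57, adjusted p = 0.0104). These CPT1B values rest on 16 to 41 counts in the combination and 2 to 11 with formoterol, and 58.3% of its 100-base stretches are shared with the readthrough gene CHKB-CPT1B, so its counts are uncertain.

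**Figure D3:**
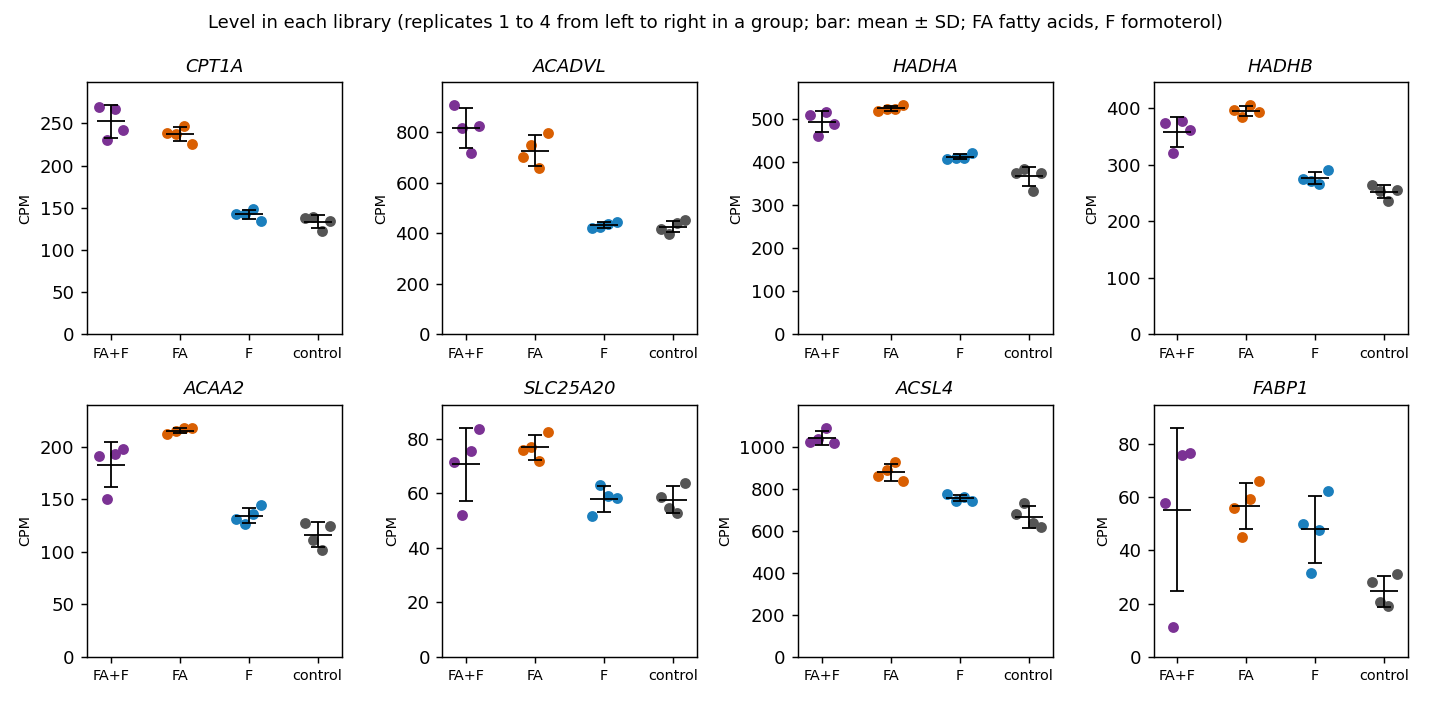
CPM in each library of 8 genes that rose with fatty acids, with mean ± SD bars, for the combination (FA+F), fatty acids (FA), formoterol (F) and control. For CPT1A, ACADVL, HADHA, HADHB and ACAA2 all 8 libraries with fatty acids lie above all 8 without, and for FABP1 combination replicate 2, at 11 CPM, lies below every other library.

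Of the 6 acyl-CoA dehydrogenases tested, the one for very long chains rose with fatty acids, while those for medium and short chains did not pass. ACADVL (ENSG00000072778, chr17:7217125-7225273, + strand), which takes the first step for long-chain acyl-CoA at the inner mitochondrial membrane, had 906, 817, 716 and 824 CPM in the combination libraries, 701, 749, 656 and 797 CPM in the fatty acid libraries, 421, 426, 438 and 446 CPM in the formoterol libraries and 417, 398, 439 and 451 CPM in the control libraries. All 8 libraries with fatty acids were above all 8 without, and the formoterol libraries lay within the range of the control libraries. Its log2 fold change was 0.93 ± 0.07, adjusted p = 6.65e-09 with the combination and 0.77 ± 0.07, adjusted p = 1.14e-07 with fatty acids, each against control, and 0.02 ± 0.07, adjusted p = 0.898 with formoterol. ACADM, the medium-chain enzyme, had 198, 154, 215 and 212 CPM in the combination libraries, 234, 253, 239 and 235 CPM in the fatty acid libraries, 233, 241, 242 and 248 CPM in the formoterol libraries and 222, 233, 189.5 and 213 CPM in the control libraries. It passed against control in no group (0.16 ± 0.08, adjusted p = 0.205 with fatty acids), but was lower in the combination than with formoterol (-0.31 ± 0.08, adjusted p = 0.0125). RABGGTB, which overlaps ACADM on the same strand with 0.343 times its counts, was lower in that comparison too (-0.26 ± 0.07, adjusted p = 0.0182). The part of its reads in the ACADM values was not tested. ACADSB, which works on branched chains of isoleucine breakdown, was lower in the combination than in control (-0.27 ± 0.08, adjusted p = 0.018, lost without control replicate 1 or 2) and lower than with formoterol (-0.46 ± 0.08, adjusted p = 0.000212). ACADS, ACAD9 and ACAD10 passed no test, with log2 fold changes against control between −0.20 and 0.18.

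The electrons of these dehydrogenases pass through the flavoprotein formed by ETFA and ETFB to ETFDH, which hands them to ubiquinone. ETFA had 188, 151, 191 and 189.8 CPM in the combination libraries, 205, 182, 197 and 189 CPM in the fatty acid libraries, 178, 191, 179 and 200.4 CPM in the formoterol libraries and 154, 144, 139.6 and 165 CPM in the control libraries. ETFDH had 131, 103, 142 and 138 CPM in the combination libraries, 145, 145, 151 and 153 CPM in the fatty acid libraries, 140.3, 139, 143 and 137 CPM in the formoterol libraries and 121, 116, 113 and 116 CPM in the control libraries. For both, the fatty acid and the formoterol libraries were all above the control libraries, and combination replicate 2 was the lowest combination library. ETFA rose with fatty acids (0.36 ± 0.08, adjusted p = 0.00197), formoterol (0.31 ± 0.07, adjusted p = 0.0103) and the combination (0.26 ± 0.07, adjusted p = 0.0241), the last lost without control replicate 2 or 3 or combination replicate 1, 3 or 4. ETFDH rose with fatty acids (0.35 ± 0.07, adjusted p = 0.00177) and formoterol (0.26 ± 0.07, adjusted p = 0.0237), and its formoterol call was lost without control replicate 3 or 4 or formoterol replicate 1 or 3. It did not pass in the combination (0.14 ± 0.07, adjusted p = 0.232), but did without combination replicate 2 (log2 fold change 0.23, adjusted p = 0.00385). Its neighbour PPID on the opposite strand held 0.309 times its counts and had an interaction of -0.42 ± 0.11, adjusted p = 0.0283 beside that of -0.47 ± 0.10, adjusted p = 0.0108 for ETFDH. The part of PPID reads in the ETFDH values was not tested. ETFB passed no test, with 0.13 ± 0.08 with fatty acids and 0.17 ± 0.08 with formoterol.

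Of the 5 genes of the later mitochondrial steps, 3 rose with fatty acids, where 8.93% of all tested genes rose. HADHA and HADHB code for the alpha and beta subunits of the trifunctional protein, which carries out the last 3 steps for long chains. HADHA (ENSG00000084754, chr2:26190635-26244726, - strand) had 507, 461, 515 and 487 CPM in the combination libraries, 518, 522, 523 and 531 CPM in the fatty acid libraries, 407, 409, 409.6 and 421 CPM in the formoterol libraries and 374, 384, 333 and 373 CPM in the control libraries. HADHB (ENSG00000138029, chr2:26243170-26290468, + strand) had 373, 320.2, 378 and 362 CPM in the combination libraries, 397, 384, 405 and 393 CPM in the fatty acid libraries, 275, 271, 266 and 290.5 CPM in the formoterol libraries and 265, 254, 236 and 255 CPM in the control libraries. For both genes all 8 libraries with fatty acids stood above all 8 without, the combination libraries lay below the fatty acid libraries, and the formoterol libraries lay above the control libraries. HADHA changed by 0.43 ± 0.05, adjusted p = 8.08e-06 with the combination and 0.52 ± 0.05, adjusted p = 7.66e-07 with fatty acids, and HADHB by 0.51 ± 0.06, adjusted p = 2.77e-06 and 0.65 ± 0.06, adjusted p = 9.89e-08. With formoterol alone neither passed (0.17 ± 0.05, adjusted p = 0.0503 for HADHA and 0.13 ± 0.06, adjusted p = 0.182 for HADHB), although HADHA did without combination replicate 2 (adjusted p = 0.0206).

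HADHA and HADHB lie head to head on chromosome 2, with RefSeq start sites 307 bases apart, and their promoter windows (GRCh38.p14, HADHA chr2:26244583-26244882, - strand, HADHB chr2:26244689-26244988, + strand) share 194 bases. The windows are shown because both genes rose with fatty acids and their windows share one stretch, which is in capitals and reads as the reverse complement in the second line.
HADHA: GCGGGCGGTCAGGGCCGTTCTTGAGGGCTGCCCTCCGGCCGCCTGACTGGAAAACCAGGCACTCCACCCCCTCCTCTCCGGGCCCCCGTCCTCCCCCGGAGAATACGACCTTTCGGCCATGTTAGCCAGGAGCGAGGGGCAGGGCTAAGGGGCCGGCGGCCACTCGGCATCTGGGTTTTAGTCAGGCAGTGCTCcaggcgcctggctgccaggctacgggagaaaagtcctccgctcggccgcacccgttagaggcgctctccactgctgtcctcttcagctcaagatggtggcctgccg
HADHB: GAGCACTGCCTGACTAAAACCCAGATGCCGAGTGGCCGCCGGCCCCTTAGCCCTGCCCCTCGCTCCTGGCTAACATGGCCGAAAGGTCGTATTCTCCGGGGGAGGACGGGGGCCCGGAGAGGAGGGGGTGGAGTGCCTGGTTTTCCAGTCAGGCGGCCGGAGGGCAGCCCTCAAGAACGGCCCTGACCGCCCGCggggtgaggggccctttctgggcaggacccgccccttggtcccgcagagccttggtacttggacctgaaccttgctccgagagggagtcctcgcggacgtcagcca
Their gene bodies also overlap on opposite strands in the annotation, and the use of strand in counting is unknown here, so a part of the reads of each could be counted for the other.

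ACAA2, the mitochondrial thiolase, gave the highest rise with fatty acids among the mitochondrial oxidation enzymes. It had 191, 151, 193 and 198 CPM in the combination libraries, 212, 215, 218 and 218 CPM in the fatty acid libraries, 131, 127, 136 and 144 CPM in the formoterol libraries and 127, 112, 102 and 124 CPM in the control libraries. The fatty acid libraries were above all others and the combination libraries above all libraries without fatty acids. The log2 fold change was 0.65 ± 0.08, adjusted p = 5.2e-06 with the combination and 0.89 ± 0.08, adjusted p = 9.45e-08 with fatty acids, each against control. HADH, the short-chain hydroxyacyl-CoA dehydrogenase, and ECHS1, the short-chain enoyl-CoA hydratase, passed no test. HADH stood at 82.8 ± 7.81 CPM in the combination, 93 ± 6.18 CPM with fatty acids, 91.2 ± 7.22 CPM with formoterol and 79.5 ± 6.35 CPM in control (mean ± SD, n = 4 each), and was called with fatty acids (adjusted p = 0.0186) and with formoterol without combination replicate 2.

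The isomerases and reductases that prepare unsaturated chains such as oleic acid for oxidation were not called higher with fatty acids. ECI1, the mitochondrial enoyl-CoA isomerase, was lower with fatty acids at 44.6, 45.3, 41.5 and 48.1 CPM, against 52.6, 52.1, 56.4 and 61.7 CPM in control (log2 fold change -0.31 ± 0.08, adjusted p = 0.00705), and every fatty acid library lay below every control library. ECI2, an isomerase of peroxisomes and mitochondria, had 30.1, 24.5, 28.5 and 30.4 CPM in the combination libraries, 34.7, 31, 30.8 and 29.7 CPM in the fatty acid libraries, 36.7, 39.9, 41.5 and 42.1 CPM in the formoterol libraries and 32.4, 35.6, 27.7 and 30.5 CPM in the control libraries. The formoterol libraries were above all others, with 0.35 ± 0.09, adjusted p = 0.0136 for formoterol against control and -0.50 ± 0.09, adjusted p = 0.000378 for the combination against formoterol. The formoterol call was lost without control replicate 3. DECR1, the mitochondrial dienoyl-CoA reductase, and DECR2, its peroxisomal counterpart, did not pass with formoterol (0.29 ± 0.10, adjusted p = 0.052 and 0.27 ± 0.09, adjusted p = 0.0524), although their formoterol libraries were all above control. Both were called without combination replicate 2 (adjusted p = 0.00155 for DECR1 and 0.0396 for DECR2). DECR1 was lower in the combination than with formoterol (-0.42 ± 0.10, adjusted p = 0.0035). NBN, which overlaps DECR1 on the opposite strand, held 0.44 times its counts, and its part in the DECR1 values was not tested.

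In peroxisomes 3 of 8 genes rose with fatty acids, and 3 rose and 1 fell with formoterol. Of all tested genes 8.93% rose with fatty acids, and 5.76% rose and 4.57% fell with formoterol. EHHADH, the bifunctional hydratase and dehydrogenase and a classical PPARA target, had 409, 236, 432 and 404 CPM in the combination libraries, 466, 436, 507 and 481 CPM in the fatty acid libraries, 524, 501, 516 and 514 CPM in the formoterol libraries and 351, 414, 281 and 351 CPM in the control libraries. The fatty acid and formoterol libraries were all above the control libraries, and the combination libraries lay below both. EHHADH rose by 0.56 ± 0.13, adjusted p = 0.00885 with formoterol and 0.44 ± 0.13, adjusted p = 0.0249 with fatty acids, the second lost without any 1 of control replicates 1, 3 and 4 or fatty acid replicates 1, 3 and 4 (adjusted p up to 0.0975). The combination did not pass against control (0.09 ± 0.13, adjusted p = 0.754), but passed without combination replicate 2 (log2 fold change 0.25, adjusted p = 0.0331). ACAA1, the peroxisomal thiolase, had 154, 102, 163 and 155 CPM in the combination libraries, 185, 163, 182 and 189 CPM in the fatty acid libraries, 146, 164, 154 and 171 CPM in the formoterol libraries and 126, 120.3, 117 and 135 CPM in the control libraries. It rose with fatty acids (0.53 ± 0.10, adjusted p = 0.00111) and formoterol (0.35 ± 0.10, adjusted p = 0.0344), and in the combination it was called only without replicate 2 (adjusted p = 0.000676) against 0.221 with it. The formoterol call of ACAA1 was lost without any 1 of control replicates 1 to 3 or formoterol replicates 2 to 4.

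SCP2, whose longer form is the thiolase for branched chains and bile acid precursors, rose with formoterol and did not pass with fatty acids. It had 414, 248, 414 and 422 CPM in the combination libraries, 438, 422, 445 and 453 CPM in the fatty acid libraries, 634, 576, 653 and 652 CPM in the formoterol libraries and 468, 483, 343 and 416 CPM in the control libraries. The formoterol libraries were above all others, while the fatty acid libraries fell within the range of control. In log2 fold change this was 0.56 ± 0.12, adjusted p = 0.00606 with formoterol, 0.04 ± 0.12, adjusted p = 0.88 with fatty acids and -0.75 ± 0.12, adjusted p = 0.00023 for the combination against formoterol. PEX11A, a membrane protein that drives peroxisome division, went in opposite directions. It had 114, 109.5, 109 and 111 CPM in the combination libraries, 130.2, 126, 128 and 124 CPM in the fatty acid libraries, 73.6, 70.2, 82.8 and 77.2 CPM in the formoterol libraries and 104, 99, 94.6 and 104 CPM in the control libraries. The fatty acid libraries stood highest, the combination libraries next and the formoterol libraries lowest, and no group overlapped another. PEX11A rose with fatty acids (0.34 ± 0.06, adjusted p = 0.000229), fell with formoterol (-0.40 ± 0.06, adjusted p = 0.000154) and was higher in the combination than with formoterol (0.54 ± 0.06, adjusted p = 1.47e-06). Its neighbour PLIN1, which overlaps it on the same strand, held 0.298 times its counts and moved in the same directions, by 1.42 ± 0.10, adjusted p = 1.22e-09 with fatty acids, -1.01 ± 0.10, adjusted p = 2.05e-06 with formoterol and 2.08 ± 0.10, adjusted p = 8.95e-12 for the combination against formoterol. The part of PLIN1 reads in the PEX11A values was not tested. HSD17B4, the other bifunctional enzyme, stayed between 450 and 554 CPM in all libraries, and it, the oxidases ACOX2 and ACOX3, and the racemase AMACR passed no test.

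Of the ketone genes BDH1, which converts acetoacetate and beta-hydroxybutyrate into each other in mitochondria, rose with fatty acids. It had 13, 2.3, 13.5 and 13.6 CPM in the combination libraries, 18.8, 16.4, 20.2 and 22.7 CPM in the fatty acid libraries, 16.8, 16.1, 16.5 and 15.7 CPM in the formoterol libraries and 8.91, 10.6, 5.94 and 11.9 CPM in the control libraries. The fatty acid and formoterol libraries were all above the control libraries, 3 combination libraries lay between control and formoterol, and combination replicate 2 was the lowest of all. The change was 1.06 ± 0.31, adjusted p = 0.0222 with fatty acids, 0.80 ± 0.31, adjusted p = 0.111 with formoterol and 0.18 ± 0.31, adjusted p = 0.794 with the combination. The fatty acid call was lost without control replicate 1 or 3 or fatty acid replicate 4 (adjusted p up to 0.0797), and without combination replicate 2 BDH1 was called in the formoterol and combination groups too. ACAT1, the acetoacetyl-CoA thiolase, passed against control in no group and was lower in the combination than with formoterol (-0.31 ± 0.10, adjusted p = 0.037), a call lost without combination replicate 1 or 2 or formoterol replicate 1, 2 or 4. BDH2, a cytosolic dehydrogenase, passed no test.

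The thioesterases, which split acyl-CoA back into fatty acid and coenzyme A, held the largest change of the set. ACOT11 (ENSG00000162390, chr1:54542257-54639192, + strand), which acts on long-chain acyl-CoA, had 0.496, 0.507, 0.245 and 0.64 CPM in the combination libraries, 0.849, 0.361, 0.414 and 0.278 CPM in the fatty acid libraries, 1.23, 2.09, 1.8 and 1.4 CPM in the formoterol libraries and 2.64, 3.1, 2.8 and 3.02 CPM in the control libraries. All libraries with fatty acids lay below all libraries without, and the formoterol libraries lay below control. The log2 fold change was -2.61 ± 0.35, adjusted p = 1.43e-05 with the combination and -2.60 ± 0.35, adjusted p = 1.63e-05 with fatty acids, each against control, and -0.83 ± 0.31, adjusted p = 0.1 with formoterol. These are low levels, with 10 to 23 counts per library in the combination, 11 to 29 with fatty acids and 89 to 108 in control. FAM151A, which overlaps ACOT11 on the opposite strand and holds 3.84 times its counts, fell as well, by -1.21 ± 0.22, adjusted p = 0.000513 with the combination and -1.54 ± 0.22, adjusted p = 4.16e-05 with fatty acids, and without known strandedness the 2 genes cannot be told apart.

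ACOT1, the cytosolic thioesterase, rose with fatty acids (0.70 ± 0.18, adjusted p = 0.0114) and formoterol (0.66 ± 0.18, adjusted p = 0.0241), at 5.32 ± 1.4 CPM in the combination, 7.1 ± 1.35 CPM with fatty acids, 6.91 ± 0.505 CPM with formoterol and 4.38 ± 0.429 CPM in control (mean ± SD, n = 4 each). Its formoterol call was lost without control replicate 1 or 3 or formoterol replicate 4, with adjusted p up to 0.0846. ACOT2, its near copy in mitochondria, rose with fatty acids (0.32 ± 0.10, adjusted p = 0.0269), a call lost without control replicate 1, 3 or 4 or fatty acid replicate 1 or 3. ACOT1 shares 31.9% of its 100-base stretches with ACOT2, and ACOT2 shares 22.0% with ACOT1, so reads could be split between them. HEATR4, which overlaps ACOT1 on the opposite strand, held 0.1375 times the ACOT1 counts. HEATR4 passed no test (0.78 ± 0.38, adjusted p = 0.183 with fatty acids). The part of HEATR4 reads in the ACOT1 values was not tested. ACOT8 and ACOT13 passed no test, and ACOT13 overlaps C6orf62, which held 8.45 times its counts.

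The interaction, which is the effect of formoterol in the presence of fatty acids minus its effect without them, was negative in all 12 genes that passed (25.5% of the 47; 8 of 9 when scaled by total counts alone), where 5.50% of all genes passed, 2.12% above 0 and 3.38% below. Its median over the 47 genes was −0.27, against 0.01 over all genes. When scaled by total counts alone, 1030 of all genes were called above 0 and 351 below. The 12 were BDH1 (-1.69 ± 0.44, adjusted p = 0.0279), ACOT1 (-1.07 ± 0.26, adjusted p = 0.0188), EHHADH (-0.91 ± 0.19, adjusted p = 0.00741), SLC27A2 (-0.88 ± 0.24, adjusted p = 0.0318), SCP2 (-0.79 ± 0.17, adjusted p = 0.0123), ACAA1 (-0.67 ± 0.15, adjusted p = 0.0109), ACOT2 (-0.51), ECI2 (-0.50), ETFDH (-0.47), ACADM (-0.47), ACAA2 (-0.45) and ETFA (-0.41). In each of them the change was above 0 when formoterol was given alone and below 0 when it was given with fatty acids. The size of the second value rests in part on combination replicate 2. SCP2, for example, stood 0.56 ± 0.12 above control with formoterol and at -0.23 ± 0.12 in the combination relative to fatty acids, and EHHADH at 0.56 ± 0.13 and -0.35 ± 0.13. Without combination replicate 2 the values relative to fatty acids were -0.08 for SCP2, -0.19 for EHHADH, -0.55 for BDH1, -0.20 for ACADM, -0.19 for ACAA1, -0.25 for ACOT1, -0.02 for ETFA and -0.00 for SLC27A2. With all libraries they were -0.89 for BDH1, -0.30 for ACADM, -0.32 for ACAA1, -0.42 for ACOT1, -0.10 for ETFA and -0.21 for SLC27A2. None of the 12 passed on its own between the combination and fatty acids with all libraries. BDH1 did without combination replicate 2 (adjusted p = 0.0438), ACADM without control replicate 2 or 3 or combination replicate 3 or 4 (adjusted p = 0.0409 without control replicate 3) and with DESeq2 or a 1 CPM filter. ACAA1 and ACADM passed when scaled by total counts alone. Without a filter ACAA1, ACADM, BDH1 and EHHADH passed. Of the 15 genes called with fatty acids in every alternative fit, 5 were among the 12 (ACAA1, ACAA2, ACOT1, ETFA and ETFDH) and 10 were not, CPT1A (-0.00 ± 0.09, adjusted p = 0.991) and ACADVL (0.15 ± 0.10, adjusted p = 0.446) among them.

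Leaving out combination replicate 2 kept the same 12 interaction calls, with values between -0.34 for ETFA and -1.35 for BDH1. Without control replicate 3 there were 4, ACAA1, EHHADH, ETFDH and SCP2, and these 4 passed in every alternative fit; without fatty acid replicate 1 there were 7. On the scale of total counts 8 genes were below 0 and 1, PEX11A, above. The formoterol calls against control moved more, with 22 genes called without combination replicate 2, which enters that contrast through the shared estimate of spread, 5 without control replicate 3, and 7 without control replicate 1 or without formoterol replicate 4. Over all genes the formoterol calls also ranged from 1002 to 2588, and the interaction calls from 444 to 1325, when 1 library was left out. Of the 12 formoterol calls SCP2, EHHADH and PEX11A passed in every alternative. For the combination against control there were 8 calls without control replicate 3 or without combination replicate 1. For fatty acids against control 15 of the 21 calls passed in every alternative, namely ACSL4, ACSL5, CPT1A, SLC25A20, ACADVL, ETFA, ETFDH, HADHA, HADHB, ACAA2, ACAA1, PEX11A, ECI1, ACOT1 and ACOT11.

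Without combination replicate 2 the genes newly called higher were HADH and SLC27A2 with fatty acids against control, and ACAA2, ACAT1, ACOT2, BDH1, DECR1, DECR2, ECHS1, FABP1, HADH and HADHA with formoterol against control. With the combination against control they were ACAA1, BDH1, CRAT, EHHADH, ETFDH and SLC25A20, and relative to formoterol ACADS, FABP1 and SLC25A20, while the ACAT1 call of the last comparison was lost. Without control replicate 3 the calls lost were those of ACOT2, BDH1, EHHADH and FABP1 with fatty acids against control. With formoterol the calls of ACAA1, ACOT1, ACSL4, CPT2, CRAT, ECI2, ETFDH and SLC27A2 were lost and DECR2 was newly called. With the combination those of ACSL3, ACSL5, CPT2, ETFA and FABP1 were lost.

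**Figure D4:**
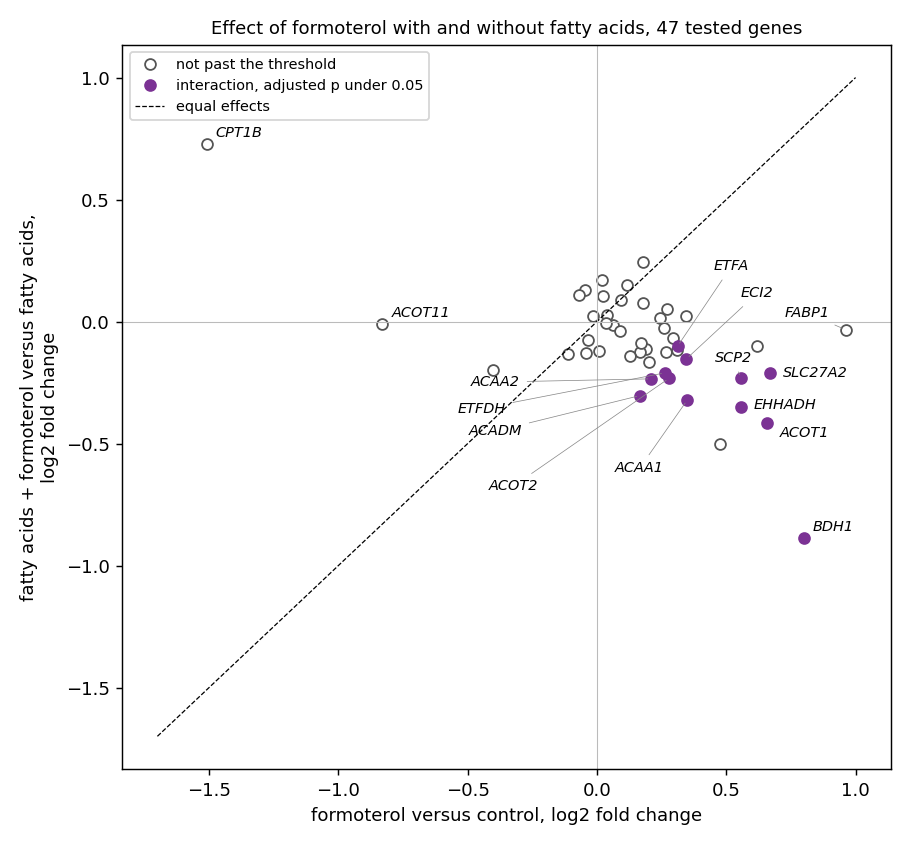
Log2 fold change of the combination against fatty acids (vertical) plotted against that of formoterol against control (horizontal) for the 47 tested genes, with the line of equal effects dashed. The 12 genes with an interaction past an adjusted p of 0.05 (filled) lie below that line, right of 0 and below 0 on the vertical axis, with BDH1 lowest at -0.89 (-0.55 without combination replicate 2).

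**Figure D5:**
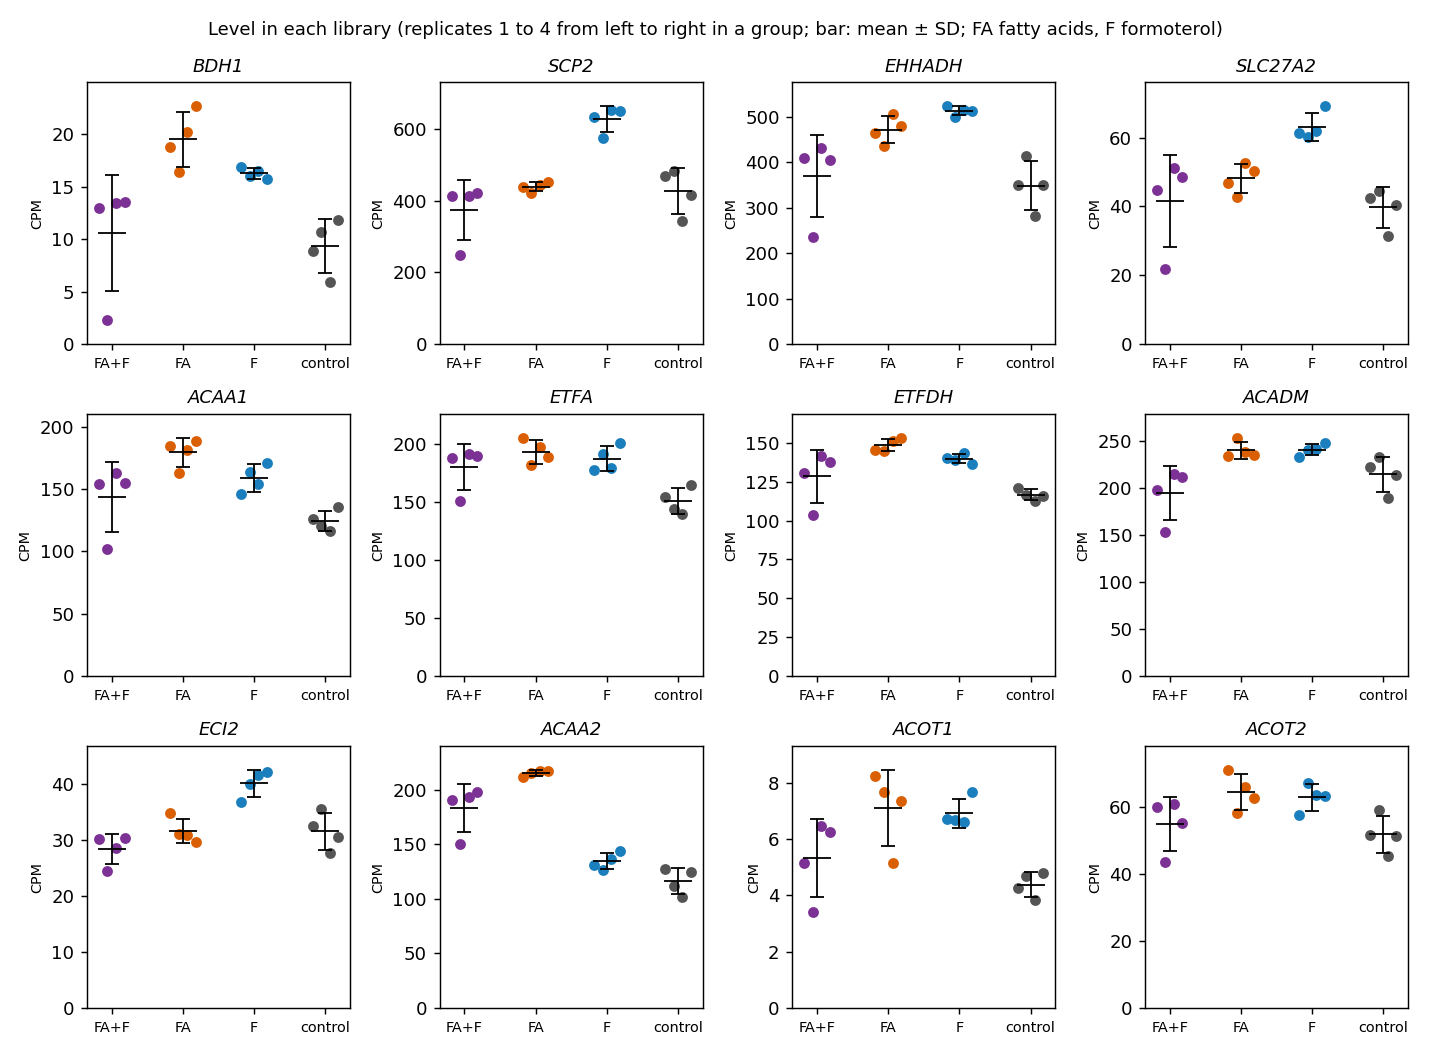
CPM in each library of the 12 genes with an interaction, with mean ± SD bars, for the combination (FA+F), fatty acids (FA), formoterol (F) and control. Combination replicate 2 is the lowest combination library in every panel, and for SCP2, SLC27A2 and ECI2 the formoterol libraries lie above those of the other 3 groups.

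Between the combination and formoterol, which shows what fatty acids did in cells that also had formoterol, 8 genes were higher and 11 lower. ACADVL (0.91 ± 0.07, adjusted p = 1.63e-08), CPT1A (0.83 ± 0.06, adjusted p = 1.06e-08), PEX11A, ACSL4 (0.47 ± 0.06, adjusted p = 9.52e-06), ACAA2 (0.44 ± 0.08, adjusted p = 0.00051), HADHB (0.38 ± 0.06, adjusted p = 0.000117), HADHA (0.26 ± 0.05, adjusted p = 0.00195) and CPT1B were higher. SCP2, SLC27A2 (-0.60 ± 0.17, adjusted p = 0.0144), ECI2, EHHADH (-0.47 ± 0.13, adjusted p = 0.0147), ACADSB, DECR1, ACADM, ACAT1, ECI1 (-0.28 ± 0.08, adjusted p = 0.0139), ACSL5 (-0.18 ± 0.05, adjusted p = 0.0148) and ACOT11 (-1.78 ± 0.35, adjusted p = 0.00101) were lower. Without combination replicate 2 the fall of EHHADH was -0.31, of SLC27A2 -0.39 and of ACAT1 -0.18, the last no longer called. ACADM, ACAT1, ECI1 and ACSL5 were not called on the scale of total counts.

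A wider list of 70 other genes of fatty acid breakdown and its control, of which 66 were tested, gave 11 higher and 12 lower with fatty acids against control (34.8%, against 16.5% of all genes), 13 higher and 5 lower with formoterol (27.3%, against 10.3%), and 7 higher and 16 lower with the combination (34.8%, against 14.3%). It gave 1 higher and 4 lower between the combination and fatty acids (7.58%, against 2.80%), 5 higher and 24 lower between the combination and formoterol (43.9%, against 18.4%), and 1 above and 11 below 0 for the interaction (18.2%, against 5.50%). PECR, a peroxisomal enoyl-CoA reductase, rose with formoterol (0.73 ± 0.14, adjusted p = 0.00214) and had an interaction of -1.10 ± 0.20, adjusted p = 0.00343. FABP4, the fatty acid binding protein of adipocytes, rose with fatty acids (1.71 ± 0.20, adjusted p = 2.89e-06) and was higher in the combination than with formoterol (1.59 ± 0.21, adjusted p = 1.65e-05). The coactivator PPARGC1A and the nuclear receptor ESRRA, which promote transcription of mitochondrial genes, fell with fatty acids (-0.76 ± 0.07, adjusted p = 1.03e-07 and -0.72 ± 0.08, adjusted p = 1.82e-06).

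Further genes of the wider list moved with formoterol or the combination. ACACB, whose product malonyl-CoA inhibits CPT1, fell with formoterol (-0.63 ± 0.07, adjusted p = 3.63e-06) and had the one interaction above 0 (0.38 ± 0.09, adjusted p = 0.0201). ACADL, the long-chain acyl-CoA dehydrogenase, fell with formoterol (-0.42 ± 0.05, adjusted p = 5.74e-05) and the combination (-0.60 ± 0.06, adjusted p = 1.19e-07), and was lower in the combination than with fatty acids (-0.34 ± 0.05, adjusted p = 0.000873). ABCD2, a peroxisomal importer of very long-chain acyl-CoA, was lower in the combination than in control (-0.87 ± 0.08, adjusted p = 9.27e-08) and than with fatty acids (-0.62 ± 0.08, adjusted p = 4.5e-05). ESRRA was higher in the combination than with fatty acids (0.31 ± 0.08, adjusted p = 0.0337), and SLC27A3, an acyl-CoA synthetase, rose with the combination against control (0.82 ± 0.10, adjusted p = 5.73e-06). Relative to formoterol, the combination had more ABCD4 (0.49 ± 0.08, adjusted p = 0.000162) and less PPARGC1A (-0.72 ± 0.07, adjusted p = 4.24e-07) and ACSS2, an acetyl-CoA synthetase (-0.58 ± 0.07, adjusted p = 1.09e-05).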

How the data were processed

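The authors deposited 1 table of raw gene counts for 16 libraries, with gene names, positions and lengths. Per the submitters' processing notes the tools were DESeq2 and HISAT2 2.0.5, and the build given there is mm39, of the mouse. Of the 58735 gene IDs 0 are of the mouse, and 58724 match GENCODE release 29 (GRCh38) in name and position, so the counts were read as human. Which program counted, and whether by strand, is not stated (not given in the sources used here).

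Libraries held 32.5 × 1e6 to 65.7 × 1e6 counts. edgeR 4.0.16 (R 4.3.3) kept 18121 genes with filterByExpr, at least 99.92% of counts in a library, scaled them with TMM and fitted 4 group means over all 16 libraries by quasi-likelihood (12 residual degrees of freedom). The 5 pairwise comparisons and the interaction were tested, with Benjamini-Hochberg adjustment over all genes at 0.05. Floors cover counting error only, while the SE and SD also hold the spread between libraries. No 2 libraries of the same group agreed within sampling noise (lowest chi-square per gene 6.62), and pairs from different groups were not compared in this way. The same-numbered libraries were not treated as paired. The fit was tested on simulated data.

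The members are the 50 listed genes, and others were named by rule, up to 2 with the smallest p in each direction and comparison from a list of 70. A gene that this rule selects is not reported here. Cell type markers were those of hepatocytes, cholangiocytes, stellate cells and fibroblasts, macrophages and leukocytes, endothelial cells, and adipocytes and muscle. Members and lists were chosen with earlier results of these data known. Promoters came from RefSeq (GRCh38.p14), and each motif was searched on both strands. Alternatives were DESeq2 1.42.0, its size factors, total counts only, no filter, at least 1 CPM in 4 libraries, the replicate number as a block, only the 2 groups compared, and each library left out in turn. Figures and tables were made in Python 3.11.15 with pandas 2.3.3 and matplotlib 3.10.9. Gene lengths in the deposited table served to divide CPM by kilobases.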

Additional observations from a re-analysis of the deposited data

Results flagged for a closer look

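In 15 of 188 sets of 4 libraries (47 genes in 4 groups) 1 library lay so far from the other 3 that its gap, as a share of the set's whole range, passed Dixon's critical value of 0.829. Chance gives about 1 in 20 such sets. The sets come from the same libraries and are not independent, so 15 of 188 was not tested against that rate. Combination replicate 2 was the low library in 8 of the 15. The ratios were 0.953 for SCP2, 0.947 for BDH1, 0.919 for ETFA, 0.859 for EHHADH, 0.856 for ACAA2, 0.856 for DECR1, 0.85 for ACAA1 and 0.847 for HSD17B4. The part that the low hepatocyte marker sum of this library has in these values was not tested. Of the other 7, formoterol replicate 1 was low for CPT1B (0.942), fatty acid replicate 3 low for ACADS (0.846), and formoterol replicate 4 high for HADH (0.852) and ACOT1 (0.897). Formoterol replicate 2 was high for AMACR (0.923) and low for ACOT8 (0.875), and formoterol replicate 3 was low for CROT (0.86).

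The effect of formoterol with fatty acids differed from its effect without them in 12 genes, by the interaction term of edgeR's quasi-likelihood test at an adjusted p under 0.05. On the log2 scale the difference was −1.69 for BDH1, −1.07 for ACOT1, −0.909 for EHHADH, −0.883 for SLC27A2, −0.787 for SCP2 and −0.671 for ACAA1. It was −0.511 for ACOT2, −0.499 for ECI2, −0.473 for ETFDH, −0.47 for ACADM, −0.446 for ACAA2 and −0.412 for ETFA. The 12 calls were the same without combination replicate 2, and 4 of them (ACAA1, EHHADH, ETFDH and SCP2) passed without control replicate 3.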

How the results depend on the processing

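Of 6432 single-gene values under alternative fits 6150 kept their side of the threshold, 117 passed newly, 165 no longer passed and 0 reversed a call. A value that changed sign without passing in either fit was counted as kept. Apart from the fits that left out 1 library, which are given below, counts of these genes moved beyond 1.5 times in 8 instances. Total counts only gave 7 with formoterol against control and 3 between the combination and fatty acids. Fitting only the 2 groups compared gave 19 with formoterol, 7 with the combination against control and 0 between the combination and fatty acids. At the same adjusted threshold the fit of all groups had 1 gene between the combination and fatty acids. It had 14 there at the looser unadjusted p under 0.05. The last comparison had 5 without a filter, 2 with at least 1 CPM in 4 libraries and 3 with DESeq2. Over all genes it had 880 without a filter, 795 with DESeq2 and 275 with only its 2 groups, and the interaction had 1523 without a filter. The cause of these moves was not tested. A 2-group fit also uses fewer libraries than the fit of all groups.

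Leaving out each library in turn gave 17 to 23 of these genes with fatty acids against control, 5 to 22 with formoterol, 8 to 19 with the combination, 0 to 2 between the combination and fatty acids, 17 to 21 between the combination and formoterol and 4 to 17 for the interaction. Over all genes the ranges were 2276 to 3587, 1002 to 2588, 1975 to 2811, 302 to 590, 2479 to 3399 and 444 to 1325 in the same order. The 0 came without fatty acid replicate 1 or 4.

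No pairing of the samples was seen by replicate number, and whether same-numbered libraries shared a culture is not stated. None of 24 same-numbered pairs had a correlation of deviations over 0.1 (−0.113 to 0.0825). With the number as a block, 22, 15, 12, 1, 20 and 13 genes passed in the same order of comparisons, within 1.5 times of the fits without it. Depth limits CD36, CPT1B, ACOX2 and ACOT11, which have few counts.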

Other observations

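Markers of other cell types were measured in the same libraries. Of 10 stellate cell and fibroblast markers 7 averaged at least 1 CPM in each group. Their sum was 624 to 784 CPM in the combination, 778 to 907 CPM with fatty acids, 487 to 525 CPM with formoterol and 660.1 to 821 CPM in control, led by DCN, and COL1A2 was listed at 0 in every library. Of 8 macrophage and leukocyte markers 1, CD14, averaged at least 1 CPM, TYROBP was listed at 0 in every library, and the sum was 12.7 to 26.2 CPM in the combination, 18.2 to 21.5 CPM with fatty acids, 25.8 to 32.4 CPM with formoterol and 21.9 to 27.2 CPM in control. Of 7 endothelial markers 2, KDR and PECAM1, did so, CDH5 was listed at 0, and the sum was 52.6 to 107 CPM in the combination, 158 to 171 CPM with fatty acids, 38.9 to 50.6 CPM with formoterol and 117 to 133 CPM in control. Of 8 adipocyte and muscle markers 2, the lipid droplet genes PLIN1 and CIDEC, did so, LEP and MYOG were listed at 0, and the sum was 78.2 to 104 CPM in the combination, 112 to 125 CPM with fatty acids, 45.0 to 54.2 CPM with formoterol and 63.5 to 88.3 CPM in control. The part of these lists in the values of the fatty acid oxidation genes was not tested.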
